A study of Mus musculus with 4 samples.

Results

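Cdkn1a, Cdkn2a, Cdkn2b, Rb1 and Trp53 were described across the arrays of 4 cultures of mouse muscle-derived stem cells (MDSCs). These 5 genes were taken by their symbols from the 268 genes of a membrane array of stem cell-related oligonucleotide probes, and each had 1 spot on each array. They were the genes with the RefSeq accessions NM_007669, NM_009877, NM_007670, NM_009029 and NM_011640, in the same order. RNA was taken from WT MDSCs, from MDSCs of myostatin knockout mice (Mst-/-, referred to as Mst KO), from MDSCs of dystrophin-deficient mdx mice (10ScSn-Dmdmdx) and from MDSCs of Oct_4 transgenic mice, which carry a reporter behind the Oct4 promoter. According to the sample labels all animals were male, all had C57BL/6J as the background strain, and all cells came from hind limb muscle by preplating and were kept in DMEM with 20% fetal bovine serum and antibiotics until nearly confluent. The label of the mdx culture thus names 2 strains. The methods describe the WT and Mst KO donors as young adults, the knockout as bred onto BL/6 from a Balb/c origin, and the cells as selected for Sca1 and used over a range of passages. They give no age for the mdx and Oct4 transgenic donors and no passage for the RNA of any array. The RNA of each array was pooled from several flasks of 1 culture, so there was 1 array for each MDSC type and no spread between cultures. No test was therefore run on any difference. Myostatin was not analysed here, so the knockout was not checked at its own gene.

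Cyclin-dependent kinases drive the cell through the G1 phase by phosphorylating the retinoblastoma protein, the product of Rb1, which in its unphosphorylated form holds E2F transcription factors inactive. The INK4 proteins p15, from Cdkn2b, and p16, from Cdkn2a, bind Cdk4 and Cdk6 and keep them from pairing with D-type cyclins, whereas p21, from Cdkn1a, inhibits cyclin-bound kinases more broadly and is a main transcriptional target of p53, the product of Trp53. Cdkn2a also encodes Arf from another first exon, and Arf stabilizes p53. In skeletal muscle, withdrawal of myoblasts from the cell cycle goes with high p21 and active Rb.

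In the RefSeq annotation of the mouse assembly GRCm38.p6 all 5 accessions were found under the same symbols. Cdkn2a and Cdkn2b lay on chromosome 4 with 0 protein-coding genes between them, Cdkn1a on chromosome 17, Rb1 on chromosome 14 and Trp53 on chromosome 11. The windows of 250 bases before and 50 bases from the annotated start are shown for the 2 genes that differed the most between the arrays, Cdkn1a and Cdkn2b. The sequences are from RefSeq, and capitals mark a pair of abutting p53 consensus half-sites in the first and a GGGCGG motif in the second.
Cdkn1a, chr17:29090729-29091028, plus strand: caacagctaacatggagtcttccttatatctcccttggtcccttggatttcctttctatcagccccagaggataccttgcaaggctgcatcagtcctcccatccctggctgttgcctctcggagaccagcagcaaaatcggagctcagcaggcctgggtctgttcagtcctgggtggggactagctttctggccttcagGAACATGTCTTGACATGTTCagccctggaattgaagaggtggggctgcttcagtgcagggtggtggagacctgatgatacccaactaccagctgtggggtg
Cdkn2b, chr4:89310983-89311282, minus strand: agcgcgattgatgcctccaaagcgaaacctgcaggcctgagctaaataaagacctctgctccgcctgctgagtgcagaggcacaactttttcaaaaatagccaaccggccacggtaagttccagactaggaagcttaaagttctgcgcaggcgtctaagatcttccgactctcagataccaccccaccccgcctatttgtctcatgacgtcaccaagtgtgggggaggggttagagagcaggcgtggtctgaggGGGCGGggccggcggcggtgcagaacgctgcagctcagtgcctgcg
Both strands were searched. A pair of p53 half-sites, with at most 1 mismatch in 1 of them, occurred in 29 of 32851 such windows of the genome (0.0883%). It began 51 bases before the upstream start of Cdkn1a and was not found in the window at its other annotated start, nor in those of Cdkn2a, Cdkn2b and Trp53. No window of Rb1 was searched. GGGCGG was in 35.7% of all windows, in both windows of Cdkn2a, in that of Cdkn2b and in the downstream window of Cdkn1a. The matches describe letters only, since no binding was measured. Cdkn2a has an annotated start for each of its products. The probe sequences were not used here, so its spot was not assigned to p16 or Arf.

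Values are normalized spot intensities, without unit, as deposited by the authors, in which the lowest spot of an array is 0. Of the 268 genes, the authors' software called 136 present in WT, 133 in Mst KO, 126 in mdx and 130 in Oct4 transgenic MDSCs, and 149 in at least 1 of the 4 types. The lowest value of a present gene was between 0.697 and 0.898. The only measured error is that between spots of one gene on one membrane, a mean SD of 0.05 on the log2 scale, from Gapdh, Ppia and B2m with 3 bright spots each. It does not apply to dim single spots such as those described here. The myogenic genes Myod1, a transcription factor of muscle cells, and Cdh15, the M-cadherin of myoblasts, were present on all arrays, at 17.5 and 8.67 in WT MDSCs and between 1.06 and 2.68 in the other 3 types. Of 6 immune genes only Cd8a was present, and neither of 2 endothelial genes was. Of 3 neural genes, Nes was present in WT and Tubb3 in Oct4 transgenic MDSCs. The 5 housekeeping genes were brighter on the Oct4 transgenic array than on those of WT and Mst KO MDSCs. Compared with mdx MDSCs, Rps27a was not, at 24.7 against 27.1. Gapdh was at 139 in Oct4 transgenic against 113 in WT MDSCs, and B2m at 72.2 against 33.0. Scaling to 5 housekeeping genes therefore lowers every log2 ratio of Oct4 transgenic over WT MDSCs by 0.46 and raises those of Mst KO over WT MDSCs by 0.34.

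**Figure D1:**
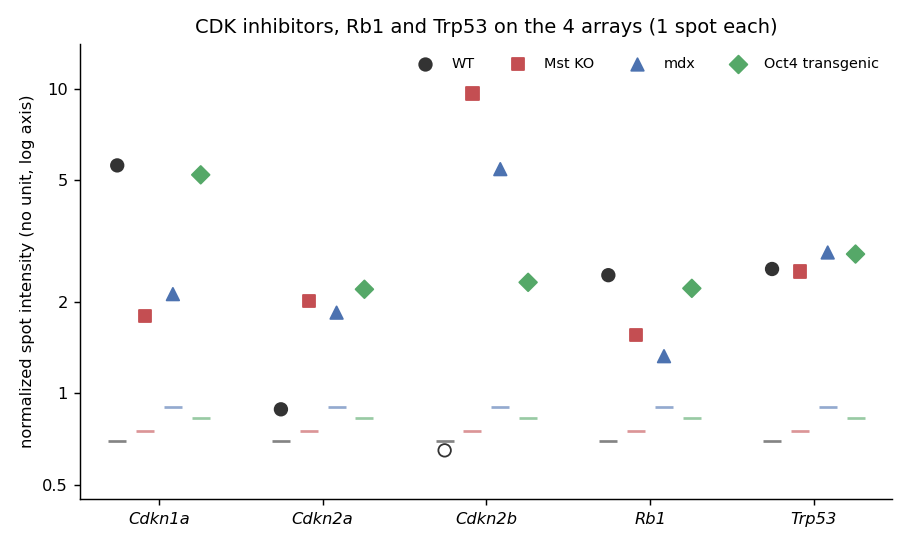
Normalized spot intensity (log axis, no unit) of the 5 genes on the 4 arrays, with 1 point for each array. The open point is a value called absent and the short lines are the lowest present value of each array, so that Cdkn2b at 0.649 in WT MDSCs lies just under the line at 0.697, whereas Cdkn2b in Mst KO MDSCs lies at 9.64.

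Cdkn2b, the inhibitor of Cdk4 and Cdk6, differed the most. Its normalized intensity was 0.649 in WT MDSCs, where it was called absent, and 2.31 in Oct4 transgenic, 5.44 in mdx and 9.64 in Mst KO MDSCs, where it was present. WT MDSCs were thus the lowest and Mst KO MDSCs the highest. With the WT value set to that of the dimmest present gene on the WT array, Cdkn2b was at least 13.8-fold higher in Mst KO than in WT MDSCs, at least 7.80-fold higher in mdx and at least 3.32-fold higher in Oct4 transgenic MDSCs, as limits for the deposited scaling. Counted this way its ratio was the highest of 144 genes for Mst KO over WT MDSCs, number 3 of 143 for mdx and number 6 of 144 for Oct4 transgenic over WT MDSCs. Over the 4 arrays only 1 of 149 genes had a wider range.

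The spot of Cdkn2b had a raw intensity of 432 in WT MDSCs beside a local background of 231, and of 3688 in Mst KO MDSCs beside 616. In mdx MDSCs the raw values were 1861 and 400, and in Oct4 transgenic MDSCs 895 and 326. The WT spot was therefore brighter than the membrane around it, but below 450, the lowest raw value of a present spot there. The brightest of the spots around it was beta-catenin (Ctnnb1), at 28.1 in WT, 26.1 in Mst KO, 28.6 in mdx and 40.7 in Oct4 transgenic MDSCs. Whether light from spots around it added to that of Cdkn2b was not tested. No spot of any array was marked for bleeding.

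**Figure D2:**
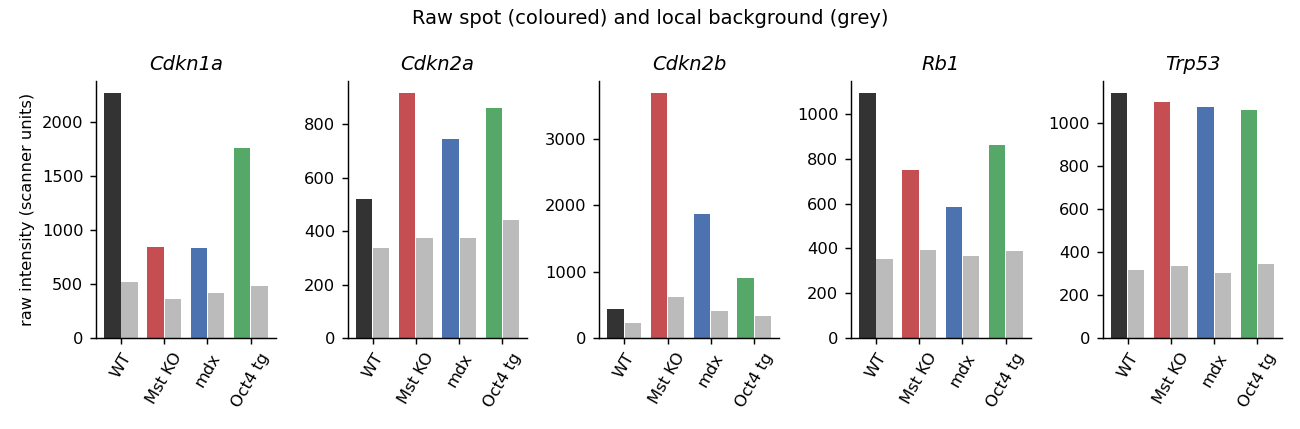
Raw spot intensity (coloured bars, scanner units) and local background (grey bars) of the 5 genes on the 4 arrays, each panel with its own axis from 0. Cdkn2a in WT MDSCs stood 1.55-fold above its local background and Cdkn2b in Mst KO MDSCs 5.99-fold.

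Between the 3 other MDSC types, Cdkn2b was 1.77-fold lower in mdx than in Mst KO MDSCs, 4.17-fold lower in Oct4 transgenic than in Mst KO MDSCs and 2.35-fold lower in Oct4 transgenic than in mdx MDSCs. This order held under the 7 alternatives of scaling, background and absent values, and so did WT as the lowest. Raising absent values could not move the order of these 3 types, in which Cdkn2b was present. The mdx over Mst KO log2 ratio of -0.83 passed 2-fold with scaling to 5 housekeeping genes (-1.22), also without background correction (-1.14). The log2 ratio of Oct4 transgenic over WT MDSCs was 1.83 and came within 2-fold without background correction (0.90). The summed intensity of 3 markers of mesenchymal cells, Pdgfra, Col1a1 and Cdh11, was also lowest in WT MDSCs at 42.5, followed by 62.0 in Oct4 transgenic, 140 in Mst KO and 211 in mdx MDSCs, and all 3 were present on every array. Pdgfra and Cdh11 were lowest in WT MDSCs, whereas Col1a1 was at 30.1 in Oct4 transgenic and 32.2 in WT MDSCs. Their part in the result was not tested. In RNA of whole cultures, fewer cells of a type and less RNA per cell cannot be told apart.

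Cdkn2a, whose products act on Cdk4, Cdk6 and p53, was also lowest in WT MDSCs. It was present on all 4 arrays, at 0.886 in WT, 1.84 in mdx, 2.01 in Mst KO and 2.19 in Oct4 transgenic MDSCs. The 3 other types lay close together and all above WT MDSCs, 2.27-fold for Mst KO, 2.08-fold for mdx and 2.48-fold for Oct4 transgenic MDSCs. The raw WT spot was at 520 beside a local background of 336, and the raw spots of the others were at 917, 747 and 860 beside 374, 376 and 444. The difference thus rests on a WT spot near the lower limit of what was called present. The local background was also lowest in WT and highest in Oct4 transgenic MDSCs. The spot of Cdkn2a lay between those of Cdkn1a and Cdkn2b on the membrane. The brightest spot around it was Ctnna1 in WT MDSCs, at 31.6. In the other types it was Ctnnb1, at 26.1 in Mst KO, 28.6 in mdx and 40.7 in Oct4 transgenic MDSCs. Whether light from these spots added to that of Cdkn2a was not tested. Raising absent values could not move the ratios of Cdkn2a, which was present on all arrays. For Mst KO over WT MDSCs the log2 ratio of 1.18 stayed past 2-fold under the 7 alternatives, up to 1.73 with local background. For mdx over WT MDSCs it was 1.05 and fell to 0.73 without background correction, and for Oct4 transgenic over WT MDSCs it was 1.31 and fell to 0.84 with 5 housekeeping genes and to 0.58 without background correction. Which of the 3 other types was highest depended on the scaling, since the log2 ratio of Oct4 transgenic over Mst KO MDSCs was 0.13 as deposited and -0.68 with 5 housekeeping genes. Bmi1, a Polycomb protein that represses the Cdkn2a locus, was at 4.31 in WT, 2.58 in Mst KO, 3.58 in mdx and 4.0 in Oct4 transgenic MDSCs, within 2-fold throughout.

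Cdkn1a had a different pattern, with WT and Oct4 transgenic MDSCs high and Mst KO and mdx MDSCs low. This gene for p21 was present on all 4 arrays, at 5.59 in WT, 5.21 in Oct4 transgenic, 2.11 in mdx and 1.79 in Mst KO MDSCs. It was 3.12-fold lower in Mst KO than in WT MDSCs and 2.65-fold lower in mdx MDSCs, and these were the ratios number 7 of 144 and number 9 of 143 from the lowest, counted in the same way. In Oct4 transgenic MDSCs it was 1.07-fold lower than in WT MDSCs. The raw spots were 4.38-fold above the local background in WT, 2.32-fold in Mst KO, 2.01-fold in mdx and 3.64-fold in Oct4 transgenic MDSCs. The local background was at 516 in WT, 482 in Oct4 transgenic, 413 in mdx and 361 in Mst KO MDSCs, the order of Cdkn1a. Alpha-catenin (Ctnna1), a spot beside that of Cdkn1a, had this order too, at 31.6, 28.6, 23.5 and 14.2. Ctnnb1, also beside it, was highest in Oct4 transgenic MDSCs at 40.7. Whether light from these spots added to that of Cdkn1a was not tested. The log2 ratios over WT MDSCs, -1.64 for Mst KO and -1.40 for mdx, stayed past 2-fold under the 7 alternatives, the nearest to 0 being -1.07 and -1.13. Raising absent values could move neither, since Cdkn1a was present on all arrays.

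Against Mst KO MDSCs, Cdkn1a was 2.91-fold higher in Oct4 transgenic MDSCs, and against mdx MDSCs 2.46-fold higher. The log2 ratio of mdx over Mst KO MDSCs was 0.24 and turned to -0.15 with 5 housekeeping genes, so the order of these 2 types depended on the scaling. The differences of Oct4 transgenic MDSCs from both did too. With 5 housekeeping genes the log2 ratios of 1.54 and 1.30 became 0.74 and 0.89, both within 2-fold but still positive. The myogenic factor Myod1 induces Cdkn1a in differentiating myoblasts. It was at 17.5 in WT, 2.68 in mdx, 2.65 in Mst KO and 1.68 in Oct4 transgenic MDSCs, and its part in the Cdkn1a values was not tested. The summed intensity of 6 myogenic markers, of which 5 were present on each array, was 76.9 in WT, 20.5 in Mst KO, 17.1 in mdx and 16.7 in Oct4 transgenic MDSCs. Most of the WT sum came from Actc1, a muscle actin, at 39.9, and from Myod1. The myogenic factor gene Myf5 was between 1.94 and 2.69 and the desmin gene Des between 5.77 and 7.92 on the 4 arrays, and Myf6 was absent on all. The sum was thus lower than in WT MDSCs in all 3 types in which Cdkn2a and Cdkn2b were above WT MDSCs. Cdkn1a was low with it in Mst KO and mdx MDSCs, but not in Oct4 transgenic MDSCs. The part of this sum in these results was not tested.

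Rb1 and Trp53 stayed within 2-fold by the deposited values in all comparisons of the 4 arrays. Rb1 was at 2.44 in WT, 2.21 in Oct4 transgenic, 1.55 in Mst KO and 1.32 in mdx MDSCs, in nearly the order of Cdkn1a but over a narrower range. It was 1.57-fold lower in Mst KO and 1.84-fold lower in mdx than in WT MDSCs. The log2 ratio of mdx over WT MDSCs, -0.88, passed 2-fold only with local background (-1.15). That of Oct4 transgenic over Mst KO MDSCs was 0.51 and turned to -0.30 with 5 housekeeping genes. Trp53 varied the least of the 5 genes. Values were 2.51 in Mst KO, 2.56 in WT, 2.86 in Oct4 transgenic and 2.90 in mdx MDSCs, a log2 range of 0.21 over the 4 arrays, and 143 of 149 genes had a wider one. The median range of the 149 genes was 0.69. The raw spot of Trp53 was between 1059 and 1138 on all arrays. With 5 housekeeping genes its log2 ratio turned from -0.03 to 0.31 for Mst KO over WT MDSCs. For Oct4 transgenic over WT MDSCs it turned from 0.16 to -0.30. The ratio of mdx over WT MDSCs stayed positive under the alternatives, between 0.12 and 0.50. That of Oct4 transgenic over mdx MDSCs stayed negative, between -0.60 and -0.02. All its ratios stayed within 2-fold, and no direction is given for Trp53.

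**Figure D3:**
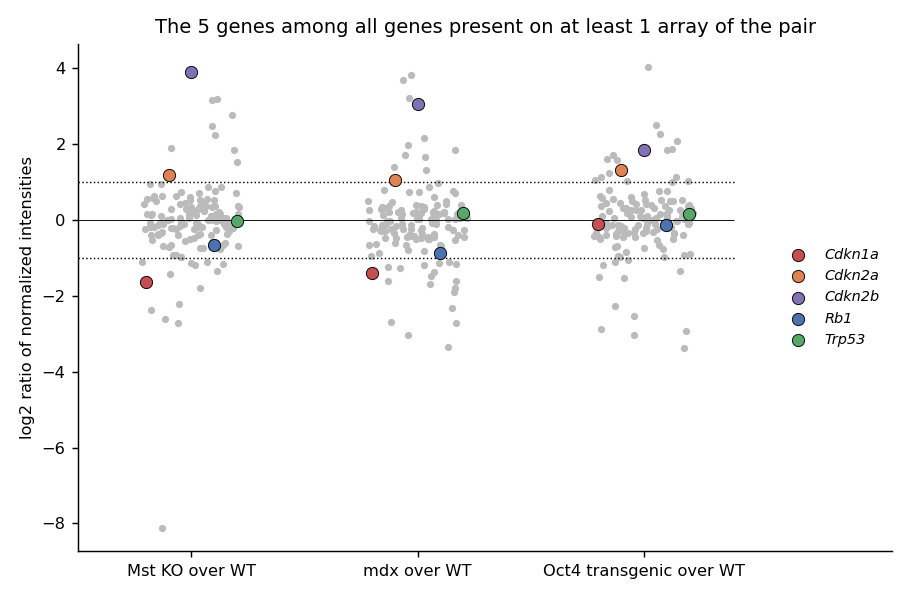
Log2 ratio over WT MDSCs of the 5 genes (coloured points) and of all other genes called present in either type of the pair (grey points, spread sideways for display only). Dotted lines mark 2-fold, and Cdkn2b is the highest point for Mst KO over WT MDSCs at 3.89 with the WT value as deposited.

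Of the 5 genes, 3 differed by at least 2-fold between Mst KO and WT MDSCs, with Cdkn2a and Cdkn2b higher and Cdkn1a lower, against 24 of 144 genes of the whole array (16.7%). The same 3 genes differed in the same directions between mdx and WT MDSCs, against 31 of 143 genes (21.7%). Between Oct4 transgenic and WT MDSCs, 2 of 5 differed, Cdkn2a and Cdkn2b, both higher, against 31 of 144 genes (21.5%). In the same order, log2 ratios of the 5 genes had medians of -0.03, 0.18 and 0.16, and those of all genes -0.04, -0.03 and -0.01, so the 5 did not move one way together. These 3 comparisons share the WT array and are not independent. Of the 5 genes, 0 differed by 2-fold between mdx and Mst KO MDSCs, against 9 of 140 genes (6.43%). Between Oct4 transgenic and Mst KO MDSCs, 2 differed, Cdkn1a higher and Cdkn2b lower, against 25 of 142 genes (17.6%), and the same 2 differed between Oct4 transgenic and mdx MDSCs, against 26 of 137 genes (19.0%). With 5 genes and 1 array for each MDSC type, nothing particular to these genes can be read from the counts.

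**Figure D4:**
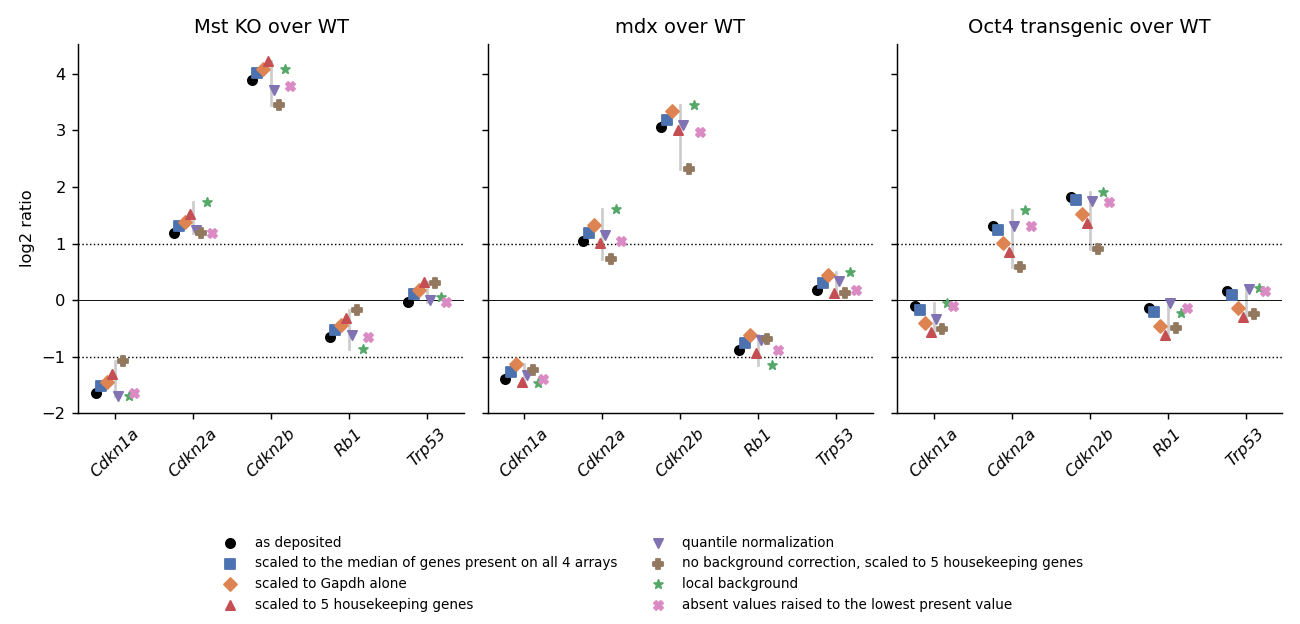
Log2 ratio over WT MDSCs of the 5 genes as deposited (black) and under the 7 alternatives of scaling, background and absent values (other symbols), with grey lines from the lowest to the highest and dotted lines at 2-fold. Cdkn1a in Mst KO MDSCs ran from -1.70 to -1.07, Cdkn2b in Mst KO MDSCs from 3.45 to 4.23, and Cdkn2a in Oct4 transgenic MDSCs from 0.58 to 1.59.

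The genes with the most similar profile were ranked by the root mean square difference of their log2 values over the 4 arrays, each gene centred on its mean and absent values set to that of the dimmest present gene of their array. For Cdkn2b the nearest of 144 genes was Cdh11, a cadherin of mesenchymal cells, at 0.33, followed by the chemokine Cxcl12 at 0.62 and the growth factor receptor Pdgfra at 0.62. Cdh11 was at 7.39 in WT, 22.3 in Oct4 transgenic, 65.6 in Mst KO and 68.7 in mdx MDSCs. The median difference from Cdkn2b over all 144 genes was 1.46. For Cdkn1a the nearest gene was cyclin A2 (Ccna2), a partner of Cdk2, at 0.27, with alpha-catenin (Ctnna1) at 0.42 and N-cadherin (Cdh2) at 0.45 and a median of 0.77. The spot of Ctnna1 lay beside that of Cdkn1a on the membrane. For Cdkn2a it was the repressor Snai2 at 0.20, which was at 18.4 in WT and between 30.3 and 31.7 in the other types, followed by the surface protein gene Thy1 at 0.32, absent in WT and mdx MDSCs, and the polarity gene Pard6g at 0.36. For Rb1 it was the cytokine gene Lif at 0.11, followed by Ccna2 at 0.17 and the transferrin receptor gene Tfrc at 0.17. Ccna2 was absent in mdx MDSCs, so its likeness to Cdkn1a and Rb1, as that of Thy1 to Cdkn2a, rests in part on a raised value. For Trp53 the 3 nearest genes were Rac3, Fgf3 and Nes. Rac3 was absent in Mst KO MDSCs, so its likeness rests in part on a raised value too. Fgf3 and Nes were present only in WT MDSCs, at 0.710 and 0.699, just above the lowest present value of 0.697. Their likeness to Trp53 thus rests almost wholly on values at the lowest present value of each array. Among the 5 genes themselves Rb1 and Trp53 were nearest at 0.39, Cdkn1a and Rb1 lay at 0.42, Cdkn2a and Cdkn2b at 1.06 and Cdkn1a and Cdkn2b farthest apart at 2.13. The difference is small for any 2 genes of narrow range, also where their orders differ. In mdx MDSCs Rb1 was at its lowest and Trp53 at its highest. With 4 arrays many genes have a similar order, and the likeness is a description only.

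Of 41 other genes listed for the cell cycle and for Rb and p53, 15 were on the array and 12 were present on at least 1 array. Cdc2a (now Cdk1), the kinase of mitosis, Cdk6 and the coactivator Ep300 were absent on all 4. Between Mst KO and WT MDSCs, 2 of the 12 differed by 2-fold, with Ccnd2 higher and Ccna2 lower, beside 16.7% of all genes. Between mdx and WT MDSCs 3 differed, with Ccnd2 and Cdk2 higher and Ccna2 lower, beside 21.7%. Between Oct4 transgenic and WT MDSCs 2 differed, with Ccnd2 higher and Hdac1 lower, beside 21.5%. These shares were near those of the whole array. The log2 ratios of the 12 genes had medians of 0.10, 0.19 and 0.16 in the same order, and those of all genes -0.04, -0.03 and -0.01.

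Among the cyclins, Ccna2, which acts in S phase, was at 1.84 in WT, 1.56 in Oct4 transgenic and 0.857 in Mst KO MDSCs, and was absent at 0.532 in mdx MDSCs. Its log2 ratio of -1.10 for Mst KO over WT MDSCs was close to 2-fold, and came within it when scaled to the median, to Gapdh alone or to 5 housekeeping genes, with quantile normalization and without background correction. Ccnd2, a D-type cyclin that pairs with Cdk4 and Cdk6, was absent at 0.483 in WT MDSCs. It was present at 1.80 in Mst KO, 1.20 in mdx and 7.89 in Oct4 transgenic MDSCs. As limits for the deposited scaling, it was higher than in WT MDSCs by at least 2.59-fold, 1.72-fold and 11.3-fold. The limit for mdx MDSCs was thus below 2-fold, although the ratio of the deposited values was above it. It was thus lowest in WT MDSCs, as Cdkn2a and Cdkn2b were, but highest in Oct4 transgenic MDSCs. The other D-type cyclins stayed within 2-fold of WT MDSCs, with Ccnd1 between 0.921 and 1.83 and Ccnd3 between 7.73 and 12.4.

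Among the kinases, Cdk4, the target of p15 and p16, was at 28.0 in WT, 38.2 in Mst KO, 54.7 in mdx and 36.2 in Oct4 transgenic MDSCs, a log2 ratio of 0.97 for mdx over WT MDSCs. Cdk2, the main partner of p21, was at 1.06 in WT, 1.63 in Mst KO, 2.78 in mdx and 1.41 in Oct4 transgenic MDSCs. By the deposited values both kinases were lowest in WT and highest in mdx MDSCs. The log2 ratios of Oct4 transgenic over WT MDSCs were 0.37 for Cdk4 and 0.41 for Cdk2. Scaling to 5 housekeeping genes lowers them by 0.46, so WT as the lowest depended on the scaling. Among the enzymes that Rb recruits to chromatin, the deacetylase gene Hdac1 was at 6.10 in WT, 4.63 in Mst KO, 3.34 in mdx and 0.828 in Oct4 transgenic MDSCs, where it was the dimmest gene called present, 7.37-fold lower than in WT MDSCs. Hdac2 was between 6.57 and 8.95 on the 4 arrays. Myc, a transcription factor that represses Cdkn2b and Cdkn1a in other mouse and human cells, was at 12.4 in WT, 18.1 in Mst KO, 15.0 in mdx and 12.9 in Oct4 transgenic MDSCs, all within 2-fold.

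**Figure D5:**
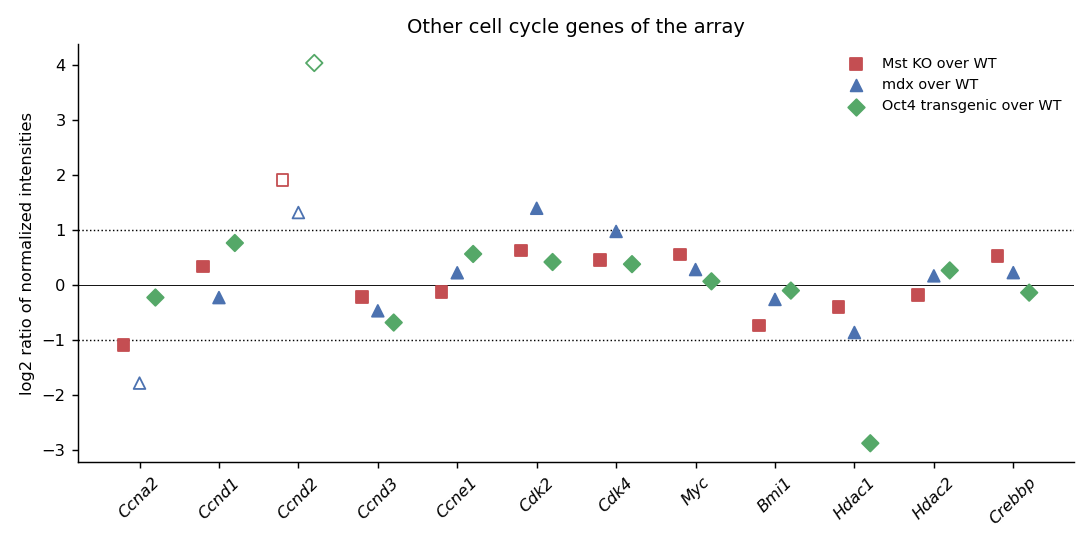
Log2 ratio over WT MDSCs of the 12 other cell cycle genes present on at least 1 array, with 1 point for each comparison and dotted lines at 2-fold. Open points are ratios in which 1 of the values was called absent, and Ccnd2 and Hdac1 in Oct4 transgenic MDSCs are the farthest from 0, at 4.03 as deposited and -2.88.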

How the data were processed

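Biotin-labeled target made from the total RNA of 4 MDSC cultures, cRNA per the labels and cDNA per the methods, was hybridised to 1 oligonucleotide membrane array each, of 288 spots, and read by chemiluminescence. The authors deposited normalized spot intensities, made with the array maker's software, and these were used here. File headers give an array's minimum as its background and 1.5 as the limit for calling a spot present. When recomputed from the deposited raw intensities, each normalized value was a spot less its array's dimmest spot, relative to the average of the 144 spots in the middle of the ranking. The methods name housekeeping genes for this step. Deposited columns of local background, of absent or present calls and of bleeding marks were also used, whereas columns with the authors' own ratios between arrays were not.

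Repeat spots were averaged per gene. Ratios between 2 arrays were counted at 2-fold or more among genes called present on either of them. Where a value was absent, a limit was also computed with the dimmest present gene of that array in its place. With 1 array for each MDSC type no test was run, and precision is limited by the number of arrays. The counting was tested on simulated data. Genes named are the 5 chosen by symbol, listed cell cycle genes that differed by 2-fold from WT, the 3 genes nearest in profile to each, housekeeping genes and the myogenic markers Myod1 and Cdh15. Other genes of the lists were named after their values were seen. The 5 genes, the lists and the 13 alternatives were chosen with earlier results of these data known. The alternatives changed the scaling, the background, the treatment of absent genes, the threshold and the table used, and values without background correction were scaled to 5 housekeeping genes. Gene names were matched by accession to RefSeq (GRCm38.p6), and promoter windows were searched for motifs there. Versions were numpy 2.4.6, pandas 2.3.3 and matplotlib 3.10.9 under Python 3.11.15.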

Additional observations from a re-analysis of the deposited data

How the results depend on the processing

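With 1 array per MDSC type no paired analysis was possible and no replicate left out. Of the 12 log2 ratios of the 5 genes past 2-fold among 6 array pairs, 98 of 108 values under 9 alternatives stayed so. Another 10 came within 2-fold, and 0 of 108 changed sign. Of 162 values of the other ratios, 3 passed 2-fold and 28 changed sign. Leaving out bleeding marks (0 spots) could move no ratio, and raising absent values only Cdkn2b over WT MDSCs. The 5 genes at least 2-fold different from WT MDSCs numbered 3 for Mst KO MDSCs under 10 of 13 alternatives, 2 of 4 among genes present on both arrays, 4 at 1.5-fold and 2 at 3-fold. For mdx MDSCs the number was 3, with 2 without background correction or among the 4 genes present on both arrays, 4 with local background or at 1.5-fold, and 1 at 3-fold. For Oct4 transgenic MDSCs it was 2, and 1 with 5 housekeeping genes, 0 without background correction, 1 among genes present on both arrays and 1 at 3-fold.

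Of the other cell cycle genes, the count for Mst KO over WT MDSCs was 2, and 1 when scaled to the median, to Gapdh alone or to 5 housekeeping genes, with quantile normalization, without background correction, with genes present on both arrays or at 3-fold, and 4 with absent genes included or at 1.5-fold. For mdx over WT MDSCs it was 3, with 4 when scaled to the median or to Gapdh alone, 2 without background correction or with absent values raised, 1 with genes present on both arrays or at 3-fold, and 5 with absent genes included or at 1.5-fold. For Oct4 transgenic over WT MDSCs it was 2, with 3 when scaled to 5 housekeeping genes, without background correction or with local background, 1 with genes present on both arrays, and 4 with absent genes included or at 1.5-fold.

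Counts over all genes moved by over 1.5 times only where the filter, the threshold or, for mdx, the background changed, to 15 of 125 genes present on both arrays and 68 of 267 with absent genes included for Mst KO over WT MDSCs, to 17 of 119 and 87 of 268 for mdx, and to 76 of 268 with absent genes included for Oct4 transgenic over WT MDSCs. At 1.5-fold and 3-fold they were 50 and 15, 50 and 19, and 48 and 17, and without background correction 19 for mdx over WT MDSCs. With 5 housekeeping genes 18 genes were higher and 9 lower for Mst KO over WT MDSCs, against 10 and 14 as deposited, and 11 higher and 24 lower for Oct4 transgenic over WT MDSCs, against 19 and 12. With Gapdh alone the 3 comparisons gave 14 and 9, 18 and 13, and 12 and 21, against 12 and 19 as deposited for mdx over WT MDSCs. Without background correction they were 15 and 7 for Mst KO and 7 and 14 for Oct4 transgenic over WT MDSCs, and with median scaling 15 and 15 for the latter. Rounding changed no count. The limit here is a dim signal, since Cdkn2a and Cdkn2b in WT MDSCs stood 1.55-fold and 1.88-fold above local background.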
